A study of Mus musculus with 4 samples.

Results

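The 10 genes described here encode the mouse MHC class I antigen presentation pathway and the inducible part of the proteasome: the class I heavy chains H2-K1, H2-D1 and H2-Q6, the light chain B2m, the immunoproteasome subunits Psmb8 and Psmb9, the peptide transporter subunit Tap1, tapasin (Tapbp), the class I transactivator Nlrc5, and the ubiquitin-like modifier Ubd. They were taken by gene symbol, and all 10 were found among the 20672 genes of the deposited tables. The genes were chosen by their UMI levels in these same libraries, by cell class and library, so every value of theirs below is a description, none is a test, and no count of theirs is read as support for anything. Levels were read as unique molecular identifiers (UMIs, 1 per captured RNA molecule) summed over cell classes in 4 single-cell libraries of mouse kidney.

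The first library came from E12.5 embryonic kidneys (strain label C57BL/6N, wild type) that had been placed in the epididymal fat of a host for 12 days. The host is given as an immunodeficient NOD mouse in the design text and as C57BL/6N in the sample label, and these files do not settle which. The other 3 libraries came from wild-type kidneys in situ: E15.5 with the strain label ICR, E17.5 with C57BL/6, and the day of birth, P0, with ICR. There was 1 library per group and no statement of how many animals were pooled, so the variation between animals or litters was not measured. Intervals below cover counting error only. The comparisons made were 3: the transplant against E17.5, the transplant against P0 and P0 against E15.5. The strain labels of the transplant and E17.5 are both C57BL/6 or a substrain of it, and those of P0 and E15.5 are both ICR. The H2 haplotype of the ICR kidneys is not known, and tdTomato, a reporter sequence, was found at P0 alone. A shared label therefore does not show a shared genetic background, which cannot be told apart from age between P0 and E15.5. Against P0, the oldest kidney in situ, strain labels and the software versions in the file headers also differ and cannot be told apart from the transplantation. Tissue age differs in both comparisons with the transplant, whose E12.5 kidneys were kept for 12 days. Age cannot be told apart from the transplantation there. Whether cells of the host are among the placed cells was not tested.

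Class I molecules are a heavy chain bound to beta-2-microglobulin that show peptides from proteins made inside the cell to CD8 T cells. The peptides come from the proteasome, are carried into the endoplasmic reticulum by the transporter made of Tap1 and Tap2, and are loaded onto class I with the help of tapasin. Interferons, and above all interferon gamma, raise the genes of this pathway, partly through Nlrc5, and replace the constitutive catalytic subunits Psmb5, Psmb6 and Psmb7 with the inducible Psmb8, Psmb9 and Psmb10. Ubd, also called FAT10, marks proteins for the proteasome and is induced by interferon gamma together with tumour necrosis factor. Endothelium and leukocytes hold more class I and immunoproteasome than healthy epithelial cells do.

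The files held 28189 cell barcodes and 291741154 UMIs. After filters, 21695 cells remained, and 13534 of them (between 58.3% and 65.9% of each library) were placed in a class by detected markers, written as "-like" throughout. Median depth was 6276.5 UMIs per cell in the transplant and 22585, 7197.5 and 9885.5 UMIs at E15.5, E17.5 and P0. Between 21.6% and 39.2% of placed cells of a library lay at the edge of the rule, with only 2 markers or a lead of 1 marker over the next class. In every class of at least 50 cells, between 2 and 6 of its own markers were among its 10 leading genes, and none of the 10 genes studied was. Library pairs shared between 27 and 108 barcodes, the most between the transplant and P0. The P0 library, labelled wild type, held 8181 UMIs of tdTomato, a reporter sequence, against 0 in the other 3 libraries, which goes against that label; results at P0 rest on this one library and cannot be given without it. No macrophage-like cell was found at P0, and lymphoid-like cells numbered 50 in the transplant, 0 at E15.5 and E17.5 and 3 at P0.

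Of the 10 genes, 8 lie on chromosome 17 between 33915899 and 37196095 (GRCm38), within the H2 complex. Tapbp lies at chr17:33915899-33929292 (+), H2-K1 at chr17:33996017-34000347 (-), Psmb9 at chr17:34181987-34187764 (-), Tap1 at chr17:34187553-34197225 (+) and Psmb8 at chr17:34197721-34201454 (+). H2-D1 follows at chr17:35262730-35267499 (+), H2-Q6 at chr17:35424850-35430055 (+) and Ubd at chr17:37193892-37196095 (+). The other two are B2m at chr2:122147686-122153083 (+) and Nlrc5 at chr8:94434356-94527272 (+). Psmb9 and Tap1 overlap on opposite strands, and the strand setting of the counting is not given in the sources used here, so reads in the overlap are of uncertain origin. The class I heavy chains are near-copies of one another, so the split of UMIs between H2-K1, H2-D1, H2-Q6 and H2-Q7 is likewise uncertain.

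Promoters of class I heavy chains and B2m are known for a shared set of control motifs, and 5 stretches that span the motif matches of H2-K1, H2-D1, H2-Q6, B2m and Tap1 are printed because most of these genes differed between libraries in the same direction. They come from RefSeq promoter windows (GRCm38.p6, 250 bases before to 50 after the annotated start), which were found for 9 of the 10 genes. Each is given 5′ to 3′ on the gene's strand, with motif matches in capitals: GGGNTTCC (the kappa B core of class I enhancer A), the core of the interferon-stimulated response element, TGACG (the X2 box core) and CCAAT (the Y box), each on either strand.
H2-K1 (chr17:34000335-34000472, -): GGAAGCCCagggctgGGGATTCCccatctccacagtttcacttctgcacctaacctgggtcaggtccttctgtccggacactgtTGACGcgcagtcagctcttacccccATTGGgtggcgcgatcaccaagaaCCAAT
H2-D1 (chr17:35262909-35263045, +): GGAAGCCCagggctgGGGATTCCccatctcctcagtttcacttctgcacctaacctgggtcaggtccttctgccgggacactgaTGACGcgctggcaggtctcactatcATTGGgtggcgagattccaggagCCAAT
H2-Q6 (chr17:35424663-35424799, +): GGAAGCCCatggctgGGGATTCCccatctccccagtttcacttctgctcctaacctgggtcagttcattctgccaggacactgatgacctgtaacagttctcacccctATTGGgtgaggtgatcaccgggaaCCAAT
B2m (chr2:122147548-122147638, +): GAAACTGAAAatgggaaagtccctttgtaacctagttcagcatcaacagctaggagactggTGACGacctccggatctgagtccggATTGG
Tap1 (chr17:34187334-34187474, +): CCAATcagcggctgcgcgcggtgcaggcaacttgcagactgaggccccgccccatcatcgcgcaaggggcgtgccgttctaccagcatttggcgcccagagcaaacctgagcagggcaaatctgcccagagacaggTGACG

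The stretches of H2-K1 and H2-D1 were identical at 122 of 138 aligned positions (88.4%), those of H2-K1 and H2-Q6 at 118 of 140 (84.3%) and those of H2-D1 and H2-Q6 at 116 of 140 (82.9%). All 3 heavy chain promoters held GGGNTTCC, which 5.83% of 32851 mouse promoter windows hold on either strand. TGACG stood in the windows of H2-K1, H2-D1, B2m, Psmb9 and Tap1 and in 20.8% of all windows, and it was not found in the H2-Q6 window. The core of the interferon-stimulated response element, 2 GAAA copies with 2 free bases between, was found in B2m (3.44% of all windows). Only this exact pattern was searched, so its absence from the heavy chain windows does not show that looser forms of the element are missing there. TTCNNNGAA, a STAT motif, was found in Psmb8 (8.3%), and CCAAT in 8 of the 9 genes (37.4%). The windows of Tap1 and Psmb9 share 275 of their 300 bases, since the genes start head to head. A match of letters is a description and does not show that a factor binds there.

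Leukocytes of the transplant held the highest levels of the pathway, endothelium-like cells the highest among the other classes of at least 50 cells in every library, and nephron progenitor-like cells the lowest. Ordered by the mean over the 10 genes of log2(CPM + 10), where CPM is UMIs per 1000000 UMIs of the class, the top points were the transplant's lymphoid-like (8.18) and macrophage-like cells (7.60). The transplant's endothelium-like cells followed (6.53), then those of P0 (6.07), and then the proximal tubule-like cells of the transplant (5.97). At the low end stood nephron progenitor-like cells at E17.5 (3.80) and E15.5 (3.78). The summed level of the 10 genes was 10772 CPM in lymphoid-like and 9930.4 CPM in macrophage-like cells of the transplant. Macrophage-like cells held 2008 CPM at E15.5 and 7110 CPM at E17.5, from 39 and 29 cells. Barcodes under 500 genes are part of the deposited cell barcodes, with medians from 727 UMIs in the transplant to 1176 UMIs at E15.5, so they do not measure free RNA directly. In them H2-D1 stood at 197 CPM in the transplant and at 0.718, 30.4 and 61.1 CPM at E15.5, E17.5 and P0.

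**Figure D1:**
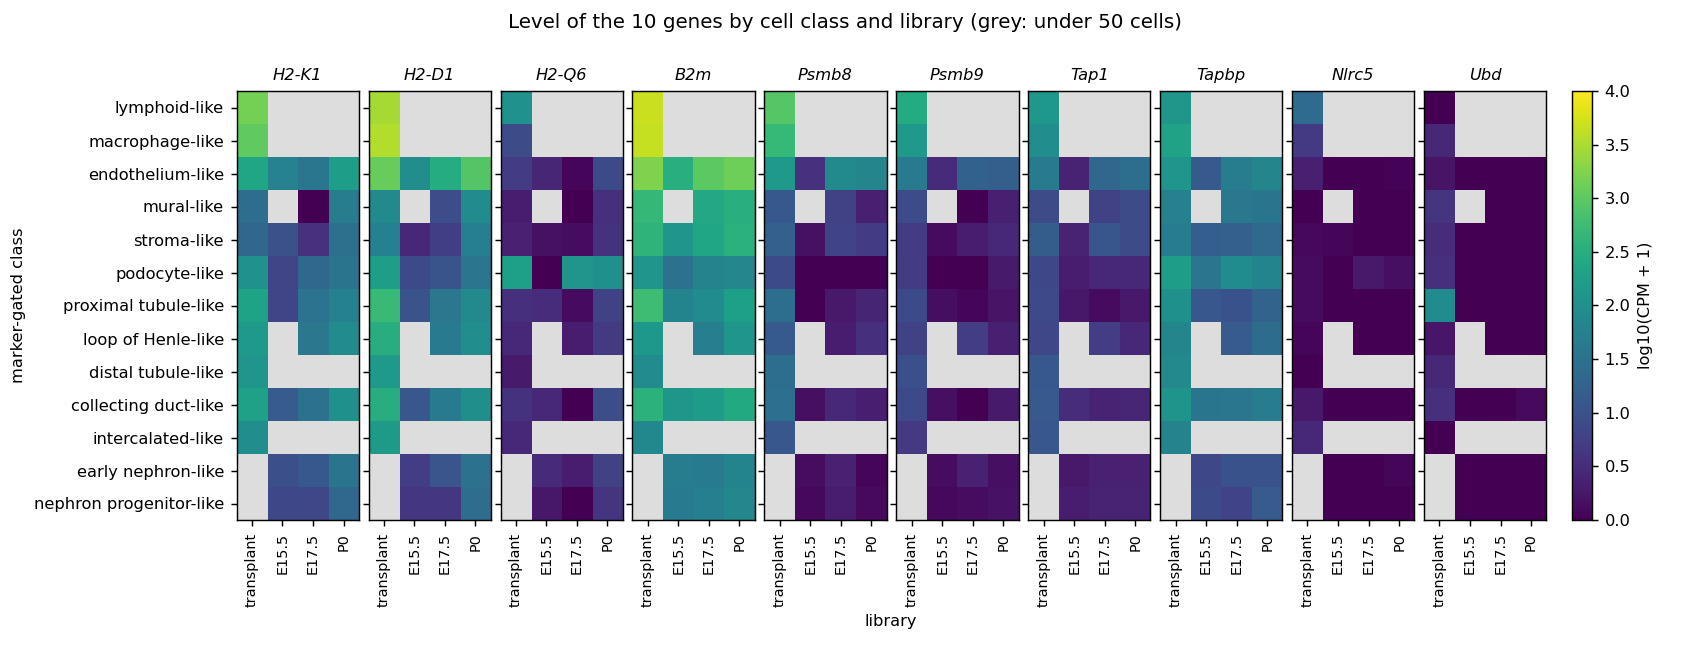
Level of each gene, as log10(CPM + 1), by marker-gated class (rows) and library (columns, the transplant at the left of each panel), with grey where fewer than 50 cells were placed. Lymphoid-like, macrophage-like and endothelium-like rows are brightest for H2-K1, H2-D1, B2m and Psmb8, while H2-Q6 is bright in podocyte-like cells and Ubd in the transplant's proximal tubule-like cells.

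In endothelium-like cells, H2-D1 stood at 1169.6 CPM in the transplant, against 90.3, 300.5 and 838 CPM at E15.5, E17.5 and P0. H2-K1 stood at 233 CPM in the transplant, against 59.4, 35.7 and 171 CPM at E15.5, E17.5 and P0, and B2m at 1659 CPM in the transplant, against 333, 977 and 1310.1 CPM at E15.5, E17.5 and P0. All 3 were highest in the transplant, and only H2-K1 was lower at E17.5 than at E15.5. In the transplant, proximal tubule-like cells held 7616 H2-D1 UMIs, 35.3% of those of placed cells, and endothelium-like cells held nearly the same number, 7611. The former came from 1115 cells and the latter from 718. In situ, endothelium-like cells held the largest share, with 62.3% at E15.5 and a higher share in both older kidneys, 72% at E17.5 and 77.5% at P0.

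Psmb8 in endothelium-like cells stood at 146 CPM in the transplant, against 2.66, 81.6 and 64.6 CPM at E15.5, E17.5 and P0, and Psmb9 at 42.1 CPM in the transplant, against 2.1, 16.3 and 15 CPM at E15.5, E17.5 and P0. Tap1 stood at 42 CPM in the transplant, against 1.54, 20.2 and 26.9 CPM at E15.5, E17.5 and P0, and Tapbp at 121 CPM in the transplant, against 12.8, 46.3 and 66.1 CPM at E15.5, E17.5 and P0. For each of these 4 genes the lowest library was E15.5 and the highest the transplant, with E17.5 and P0 in between. At E17.5 and P0 the levels of Psmb9 were within each other's counting intervals.

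Among the other classes the order of levels differed between genes. For H2-D1 in the transplant, proximal tubule-like cells (501 CPM) stood above collecting duct-like (309 CPM) and loop of Henle-like cells (304 CPM), which did not differ beyond counting error. Podocyte-like (173 CPM), intercalated-like (148 CPM) and distal tubule-like cells (146 CPM) came next with overlapping intervals, and mural-like (79.9 CPM) and stroma-like cells (56.5 CPM) were lowest. For B2m, by contrast, mural-like (457 CPM) and stroma-like cells (405 CPM) came after the proximal tubule-like cells (581 CPM) and above podocyte-like cells (122 CPM). For Tapbp, podocyte-like cells (171 CPM) stood above endothelium-like cells (121 CPM), whose interval overlapped that of collecting duct-like cells (116 CPM), and stroma-like cells (48.5 CPM) were lowest.

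**Figure D2:**
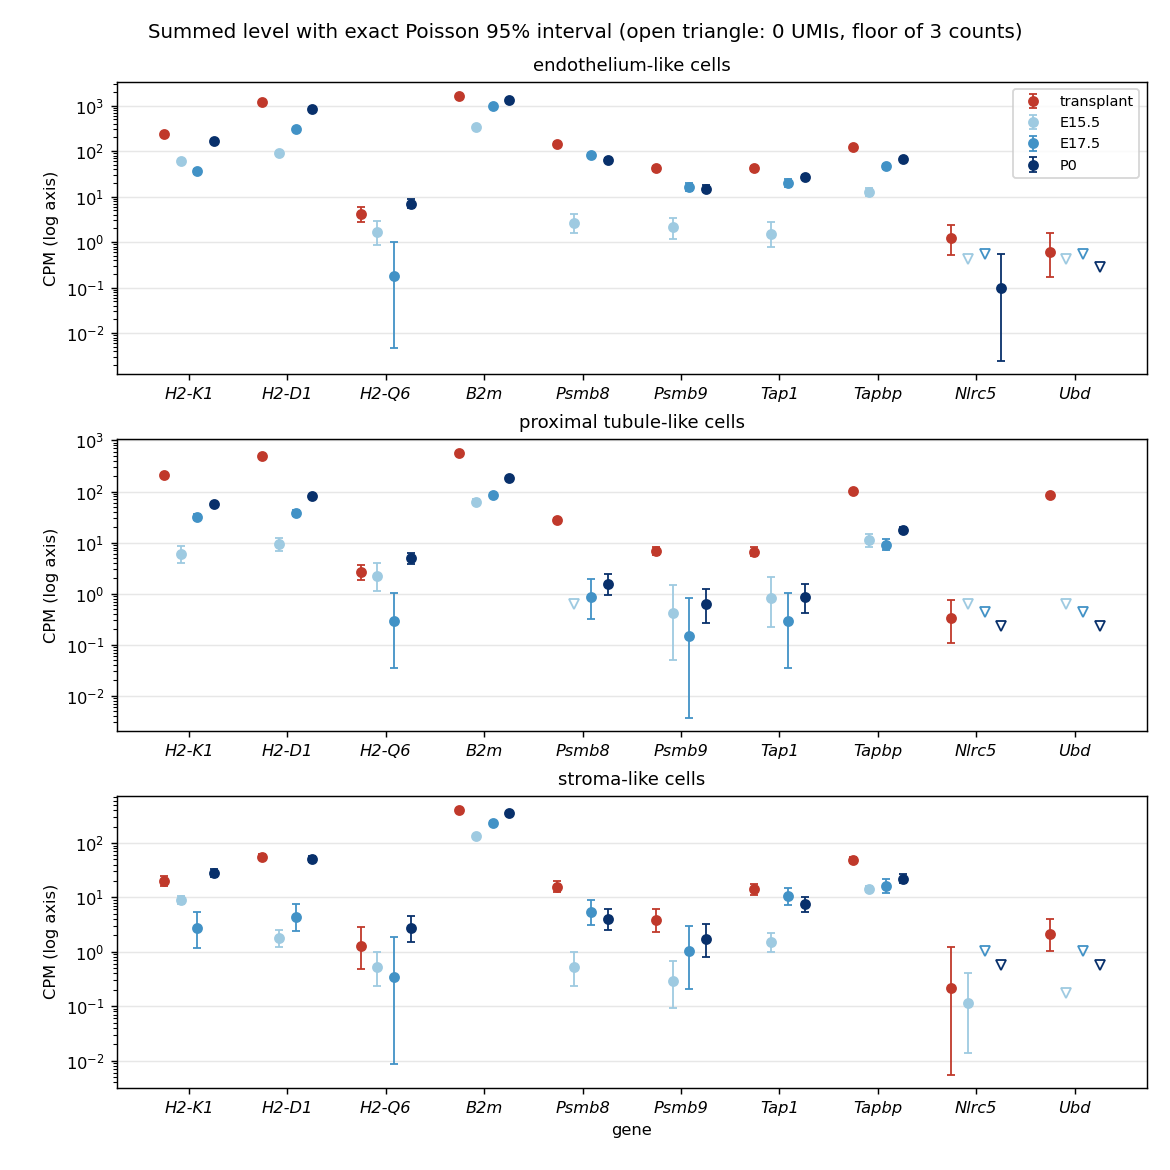
Level of each gene in CPM (log axis) in endothelium-like, proximal tubule-like and stroma-like cells, with 1 point per library and exact Poisson 95% intervals; open triangles mark 0 UMIs at the level of 3 counts. In proximal tubule-like cells the transplant stands above the 3 kidneys in situ for every gene but H2-Q6 and Nlrc5, which has 5 UMIs there, while in stroma-like cells H2-K1 and H2-D1 stand close together in the transplant and at P0.

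Against E17.5, the transplant held more H2-K1 and H2-D1 in every class compared. The median over the genes was largest in proximal tubule-like cells, while the largest ratio of H2-D1 was in podocyte-like cells (17.4) and that of H2-K1 in stroma-like cells (7.36), both with 95% intervals that overlap those of proximal tubule-like cells. A pair of a gene and a class was called where the ratio of CPM was at least 2-fold with at least 20 UMIs over both libraries, and 7 classes had at least 50 cells on both sides. Of 70 pairs, 49 had enough UMIs, and 38 of these were higher in the transplant and 0 lower. Over all genes, 12.1% of pairs were higher and 5.75% lower, and the genes were chosen with this contrast known. H2-K1 and H2-D1 were called higher in 7 of 7 classes each, Psmb8 in 5 of 6, Psmb9 in 4 of 5, Tap1 in 4 of 6, Tapbp in 5 of 7, H2-Q6 in 2 of 3 and B2m in 3 of 7. The median log2 ratio over the genes with enough UMIs ran from 1.30 in mural-like to 3.73 in proximal tubule-like cells, where genes with 0 UMIs at E17.5 entered at their bound. Beside it, the median over all genes ran from 0.04 to 0.22 over the classes.

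The proximal tubule reabsorbs most of the filtered solutes, and 9 of 9 genes with enough UMIs were higher there in the transplant than at E17.5, beside 13.9% of all genes higher and 5.2% lower. H2-D1 stood at 501 CPM in the transplant, against 9.39, 37.8 and 80.3 CPM at E15.5, E17.5 and P0, and H2-K1 at 206 CPM in the transplant, against 5.92, 32 and 55.8 CPM at E15.5, E17.5 and P0. B2m stood at 581 CPM in the transplant, against 63.5, 85.1 and 182 CPM at E15.5, E17.5 and P0. The transplant was above the highest kidney in situ for each. Against E17.5, H2-D1 was higher 13.2-fold (95% interval 11.7 to 15), B2m 6.82-fold (95% interval 6.27 to 7.43) and H2-K1 6.44-fold (95% interval 5.62 to 7.41).

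Psmb8, Psmb9 and Tap1 had few UMIs in proximal tubule-like cells in situ. Psmb8 had 415 UMIs in the transplant (27.3 CPM), against 0, 6 and 20 UMIs at E15.5, E17.5 and P0 (0, 0.87 and 1.55 CPM). Psmb9 had 105 UMIs in the transplant, against 2, 1 and 8 at E15.5, E17.5 and P0, and Tap1 had 101, against 4, 2 and 11. Tapbp, which was present throughout, stood at 102 CPM in the transplant, against 11, 9.14 and 17.5 CPM at E15.5, E17.5 and P0. Against E17.5, Psmb8 was higher 31.3-fold (95% interval 14.3 to 85.9) and Tapbp 11.2-fold (95% interval 8.67 to 14.6). The ratios of Psmb9 (47.6) and Tap1 (22.9) rest on 1 and 2 UMIs at E17.5, with intervals of 8.36 to 1897 and 6.17 to 192.

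In the distal segments the heavy chains were also higher. In collecting duct-like cells H2-D1 was higher 6.88-fold (95% interval 5.58 to 8.56) (309 against 44.9 CPM), H2-K1 6.44-fold (95% interval 4.98 to 8.46) and Psmb8 15-fold (95% interval 5.67 to 56.1). Psmb9, with 23 UMIs in the transplant and 0 at E17.5, was at least 4.79-fold higher. In loop of Henle-like cells H2-D1 was higher 6.66-fold (95% interval 4.9 to 9.27) (304 against 45.7 CPM) and Tapbp 5.23-fold (95% interval 2.95 to 10.2). Psmb9 and Tap1 there, with ratios of 1.11 and 1.43, did not reach 2-fold.

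In podocyte-like cells, the epithelial cells of the glomerular filter, H2-D1 stood at 173 CPM in the transplant, against 6.91, 9.92 and 36.4 CPM at E15.5, E17.5 and P0 and was higher in the transplant than at E17.5 17.4-fold (95% interval 9.67 to 35.1). H2-K1 stood at 105 CPM in the transplant, against 5.92, 20.7 and 33.5 CPM at E15.5, E17.5 and P0. B2m and Tapbp had ratios to E17.5 just under the threshold. Psmb8 had 24 UMIs in the transplant and 0 in podocyte-like cells of all 3 kidneys in situ, which makes it at least 2.58-fold higher than at E17.5 and at least 4.8-fold higher than at P0, against a floor of 3 counts in the class. Its level there, 6.99 CPM, lay below the 15.2 CPM in barcodes of the transplant under 500 genes. The part of free RNA in it was not tested.

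In endothelium-like cells 6 of 8 genes were higher than at E17.5, beside 12.7% of all genes higher there and 5.09% lower. H2-K1 was higher 6.52-fold (95% interval 5.61 to 7.62) and H2-D1 3.89-fold (95% interval 3.69 to 4.11). Tapbp (2.62-fold), Psmb9 (2.59-fold) and Tap1 (2.08-fold) were also called, H2-Q6 was called with 1 UMI at E17.5 (ratio 22.4, 95% interval 3.7 to 918), and Psmb8 (1.79) and B2m (1.7) were not called. In stroma-like cells H2-D1 stood at 56.5 CPM in the transplant, against 1.78, 4.44 and 51.3 CPM at E15.5, E17.5 and P0, and it was higher than at E17.5 12.7-fold (95% interval 7.3 to 24.2). B2m there (1.75) did not reach 2-fold. In mural-like cells, which wrap vessels, H2-K1 had 25 UMIs in the transplant and 0 at E17.5, at least 3.37-fold higher.

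**Figure D3:**
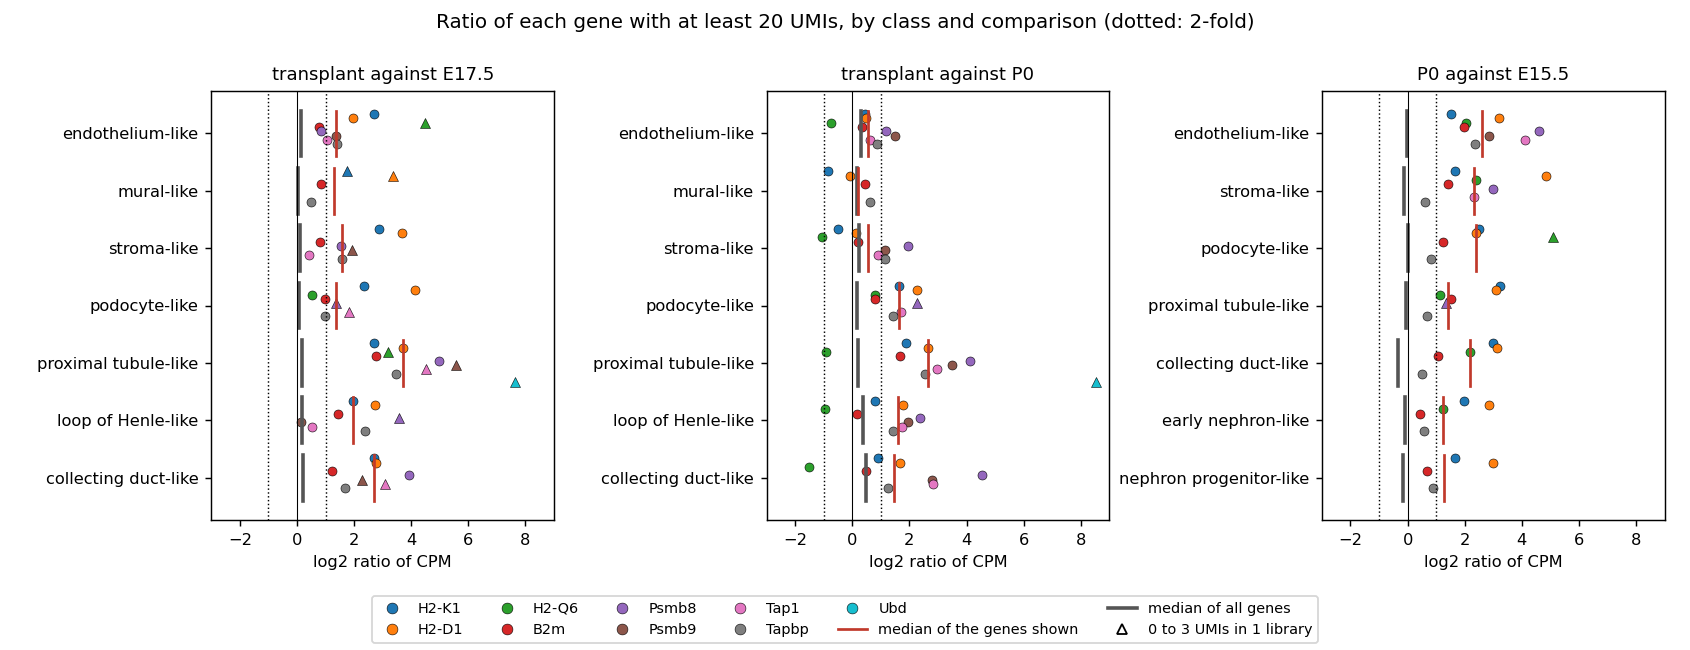
Log2 ratio of CPM of each gene with at least 20 UMIs, by class, in the 3 comparisons; red bars are the median of the genes shown, dark bars the median of all genes, dotted lines 2-fold, and triangles mark genes with 0 to 3 UMIs in 1 library. Red bars stand right of dark bars in all 21 rows, by the most in proximal tubule-like cells against E17.5 (3.73 against 0.16) and by the least in mural-like cells against P0 (0.20 against 0.17).

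Against P0, H2-K1 and H2-D1 were not called in stroma-like, mural-like or endothelium-like cells, while Psmb8 was called in every class where it had enough UMIs. Of 52 pairs with enough UMIs, 28 were higher in the transplant and 2 lower, beside 15.2% higher and 6.4% lower over all genes, in a contrast that was known when the genes were chosen. All genes together were shifted towards the transplant, with class medians between 0.17 and 0.47 on the log2 scale. Relative to that shift the split was 24 higher and 6 lower. Psmb8 was called higher in 6 of 6 classes and Psmb9 in 5 of 5, Tapbp in 5 of 7, Tap1 and H2-D1 in 4 of 6 and 4 of 7, H2-K1 in 2 of 7, B2m in 1 of 7 and H2-Q6 in 0 of 6.

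In stroma-like cells the heavy chains and the subunits differed in their ratios to P0. H2-K1 stood at 20.1 CPM in the transplant, against 8.95, 2.73 and 28.5 CPM at E15.5, E17.5 and P0, a ratio to P0 of 0.706 (95% interval 0.539 to 0.922). H2-D1, at 56.5 CPM in the transplant and 51.3 CPM at P0, had a ratio of 1.1 (0.923 to 1.31). Psmb8 in the same cells stood at 15.8 CPM in the transplant, against 0.516, 5.47 and 4.07 CPM at E15.5, E17.5 and P0 and was 3.88-fold (95% interval 2.36 to 6.64) higher, and Tapbp was 2.19-fold (95% interval 1.74 to 2.77) higher. In mural-like cells the ratios of H2-K1 and H2-D1 were 0.555 and 0.958.

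In endothelium-like cells 2 of 8 genes were higher than at P0 and 0 lower, beside 15.2% of all genes higher there and 6.55% lower. H2-K1 (1.36), H2-D1 (1.4) and B2m (1.27) did not reach 2-fold, where the median of all genes was 0.32 on the log2 scale. Psmb8 was higher 2.27-fold (95% interval 2.05 to 2.5) and Psmb9 2.8-fold (95% interval 2.3 to 3.44). Tap1 (1.56) and Tapbp (1.83) did not reach 2-fold. In proximal tubule-like cells, by contrast, the ratios of H2-K1, H2-D1, B2m, Psmb8, Psmb9, Tap1 and Tapbp to P0 were larger than in endothelium-like cells. The ratio of H2-Q6 was 0.53 in proximal tubule-like cells, and it was not called. H2-D1 there was higher 6.23-fold (95% interval 5.84 to 6.66), H2-K1 3.7-fold (95% interval 3.41 to 4.01), B2m 3.18-fold (95% interval 3.04 to 3.33), Psmb8 17.6-fold (95% interval 11.2 to 29.1) and Tapbp 5.82-fold (95% interval 5.06 to 6.72). In collecting duct-like cells Psmb8 was higher 23-fold (95% interval 9.54 to 72.6), from 96 UMIs in the transplant and 5 at P0.

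Leukocyte RNA moved with the transplant. The summed level of 8 leukocyte genes (Ptprc, Cd52, Laptm5, Coro1a, Rac2, Cd53, Tyrobp and Fcer1g) in proximal tubule-like cells was 27.5 CPM in the transplant, against 4.9, 3.19 and 1.32 CPM at E15.5, E17.5 and P0. In endothelium-like cells it was 28.7 CPM, against 18.5, 14.4 and 9.72 CPM, and in macrophage-like cells of the transplant 9856 CPM. The same sum was 17.5 CPM in podocyte-like cells of the transplant, against 1.8 and 1.94 CPM at E17.5 and P0, and 20.1 CPM in stroma-like cells, against 2.39 and 3.1 CPM. It was 43.6 CPM in mural-like cells, against 10.3 and 0 CPM, and 71.5 CPM in collecting duct-like cells, against 46.8 and 24.8 CPM. Loop of Henle-like cells held 17.7 CPM, against 17.4 and 11.2 CPM. Without the cells that held a UMI of a leukocyte gene, 33 pairs of a gene and a class were higher in the transplant than at E17.5, in place of 38, and 24 were higher than at P0, in place of 28. The median log2 ratio over the genes moved to 0.83 in mural-like cells against E17.5, in place of 1.30, and to 0.998 in collecting duct-like cells against P0, in place of 1.46. Leaving those cells out kept 109 of 240 collecting duct-like cells of the transplant and 324 of 406 at P0. With the same cells left out, which kept 998 of 1115 proximal tubule-like cells of the transplant, H2-D1 was 13.4-fold, Psmb8 29.6-fold and Tapbp 11.1-fold higher than at E17.5 in that class.

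Against E15.5, the classical heavy chains were higher at P0 in every class compared, and Psmb8, Psmb9 and Tap1 were higher in endothelium-like cells. Of 40 pairs with enough UMIs, 32 were higher at P0 and 0 lower, beside 8.27% higher and 9.61% lower over all genes, again in a contrast known beforehand. H2-K1 and H2-D1 were higher in 7 of 7 classes each, H2-Q6 in 6 of 6 and B2m in 5 of 7, while Tapbp was higher in 1 of 7. Psmb8 had enough UMIs in 3 classes, Tap1 in 2 and Psmb9 in 1, and each was higher in all of them. The class medians over these genes ran from 1.26 in early nephron-like to 2.60 in endothelium-like cells on the log2 scale, beside medians of all genes between -0.32 and 0.02.

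Endothelium-like cells were higher at P0 than at E15.5 in 8 of 8 genes, beside 12.8% of all genes higher there and 9.49% lower. Psmb8, with 671 UMIs at P0 and 19 at E15.5, was higher 24.2-fold (95% interval 15.4 to 40.5). Tap1 was higher 17.5-fold (95% interval 9.62 to 35.4), H2-D1 9.29-fold (95% interval 8.57 to 10.1) and Psmb9 7.14-fold (95% interval 4.2 to 13.1). Tapbp (5.18-fold), H2-Q6 (4.18-fold), B2m (3.94-fold) and H2-K1 (2.87-fold) were higher by less.

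Among the pairs of H2-K1 and H2-D1, the largest ratio of P0 to E15.5 was that of H2-D1 in stroma-like cells, at 51.3 CPM at P0 and 1.78 CPM at E15.5, higher 28.9-fold (95% interval 19.9 to 43.3). H2-K1 in the same cells was higher 3.18-fold (95% interval 2.52 to 4.01). In proximal tubule-like cells H2-K1 was higher 9.42-fold (95% interval 6.5 to 14.2) and H2-D1 8.55-fold (95% interval 6.36 to 11.7), while Psmb8, with 20 UMIs at P0 and 0 at E15.5, was at least 2.53-fold higher. In nephron progenitor-like cells, from which the nephron forms, H2-D1 stood at 25.8 CPM at P0 and 3.25 CPM at E15.5 (7.92-fold), with 3.26 CPM at E17.5.

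Genes of the stress response to cell dissociation moved with this comparison. The summed level of 15 early-response and heat shock genes in endothelium-like cells was 14468 CPM at P0, against 1914 CPM at E15.5. In proximal tubule-like cells it was 10680.5 CPM at P0 and 2796 CPM at E15.5. All 15 genes were called higher at P0 in endothelium-like cells, among them Hspa1b at 155-fold from 6 UMIs at E15.5. Leaving out cells that held a UMI of Hspa1a or Hspa1b after thinning to 2000 UMIs, which left 390 of 903 endothelium-like cells at P0, the median over the studied genes in endothelium-like cells was 2.67 on the log2 scale in place of 2.60. In podocyte-like cells it was 1.45 in place of 2.40. The summed level also differed in the comparisons with the transplant. Podocyte-like cells held 7167 CPM in the transplant, against 13021.5 at E17.5 and 21929 at P0, and proximal tubule-like cells 5008 CPM, against 5033 and 10680.5. Stroma-like cells of the transplant were higher, at 14468 CPM against 11717 and 14103. Loop of Henle-like and endothelium-like cells of the transplant were also higher than at E17.5, but lower than at P0. The part of this response in the other values was not tested.

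H2-Q6, a nonclassical heavy chain of the Qa-2 region, had a distribution of its own. It stood at 177 CPM in the transplant, against 0, 123 and 101 CPM at E15.5, E17.5 and P0 in podocyte-like cells, from 608, 0, 136 and 208 UMIs. The transplant was highest, and the 57 podocyte-like cells of E15.5 held no UMI at all. P0 was at least 34.1-fold above E15.5, and the transplant stood 1.44-fold (95% interval 1.2 to 1.75) above E17.5 and 1.75-fold (95% interval 1.5 to 2.06) above P0, both short of the threshold. Podocyte-like cells held 83.6% of placed H2-Q6 UMIs in the transplant, 93.8% at E17.5 and 45.2% at P0.

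Outside podocytes H2-Q6 was low, at most 8.2 CPM in the other kidney classes at P0, with 103 CPM in lymphoid-like cells of the transplant from 17 UMIs. It was the one gene of the 10 that was called lower in the transplant than at P0, in collecting duct-like (ratio 0.353) and stroma-like cells (0.478). The 95% interval of the ratio in stroma-like cells, 0.151 to 1.33, includes 1. Per 100 UMIs of its near-copy H2-Q7, podocyte-like cells held 55.1 (49.8 to 60.9) UMIs of H2-Q6 in the transplant, 50.9 (41.1 to 62.9) at E17.5 and 57.3 (48.1 to 68.1) at P0. At E15.5 they held 0 beside 21 UMIs of H2-Q7, which allows up to 19.2 per 100. In endothelium-like cells the same ratio was 19.6 (12.4 to 29.7) in the transplant, 12 UMIs of each gene at E15.5, 5.56 (0.133 to 35.2) at E17.5 and 94.8 (67.9 to 132) at P0. The 2 libraries with an ICR label had the higher ratio there, and strain, software version and the assignment of reads between the copies cannot be told apart.

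The balance of H2-K1 and H2-D1 also differed between libraries. Endothelium-like cells held 19.9 (18.8 to 21.1) H2-K1 UMIs per 100 of H2-D1 in the transplant, 65.8 (58.1 to 74.5) at E15.5, 11.9 (10.2 to 13.8) at E17.5 and 20.4 (19.3 to 21.4) at P0. Stroma-like cells held 35.6 (27.8 to 45.3) in the transplant, 503 (341 to 766) at E15.5, 61.5 (22.1 to 160.2) at E17.5 and 55.5 (45 to 68.1) at P0. E15.5 stood highest in both classes. In proximal tubule-like cells E17.5 stood highest, at 84.7 (70.5 to 102), and the transplant lowest, at 41.2 (39.5 to 43). Age, genetic background and the assignment of reads between the copies cannot be told apart in this balance, also between P0 and E15.5.

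The exchange of catalytic subunits was read as UMIs of an inducible subunit per 100 UMIs of the constitutive one whose place it takes. Psmb8 per 100 Psmb5 in endothelium-like cells was 67.5 (62.1 to 73.4) in the transplant, 1.27 (0.763 to 1.99) at E15.5, 34.9 (31.2 to 38.9) at E17.5 and 36.1 (33 to 39.4) at P0. For proximal tubule-like cells the ratio was 12.3 (11 to 13.6) in the transplant, 0 at E15.5, 0.307 (0.113 to 0.67) at E17.5 and 0.557 (0.34 to 0.861) at P0. In stroma-like cells it was 7.49 in the transplant and 0.237, 2.35 and 2.28 at E15.5, E17.5 and P0. The transplant stood highest in each class, and only in leukocytes did Psmb8 outnumber Psmb5: the ratio was 426 in lymphoid-like and 313 in macrophage-like cells of the transplant.

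Psmb9 per 100 Psmb6 followed the same order in endothelium-like cells, at 11.8 in the transplant and 0.766, 4.7 and 6.19 at E15.5, E17.5 and P0. Psmb10, which is encoded away from the H2 complex, stood at 51.7 per 100 Psmb7 in the transplant and at 11.6, 28.5 and 25.8. Its ratio in proximal tubule-like cells was 27.6 in the transplant and already 13.9, 10.4 and 8.22 in situ, where Psmb8 was nearly undetected. Of the 3 constitutive subunits themselves, 0 were called in any class in any of the 3 comparisons. Over all genes and classes, 12.1% of pairs were higher and 5.75% lower for the transplant against E17.5. The shares were 15.2% and 6.4% for the transplant against P0, and 8.27% and 9.61% for P0 against E15.5. In endothelium-like cells the transplant stood at 0.926 of E17.5 for Psmb5, 1.03 for Psmb6 and 1.01 for Psmb7.

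**Figure D4:**
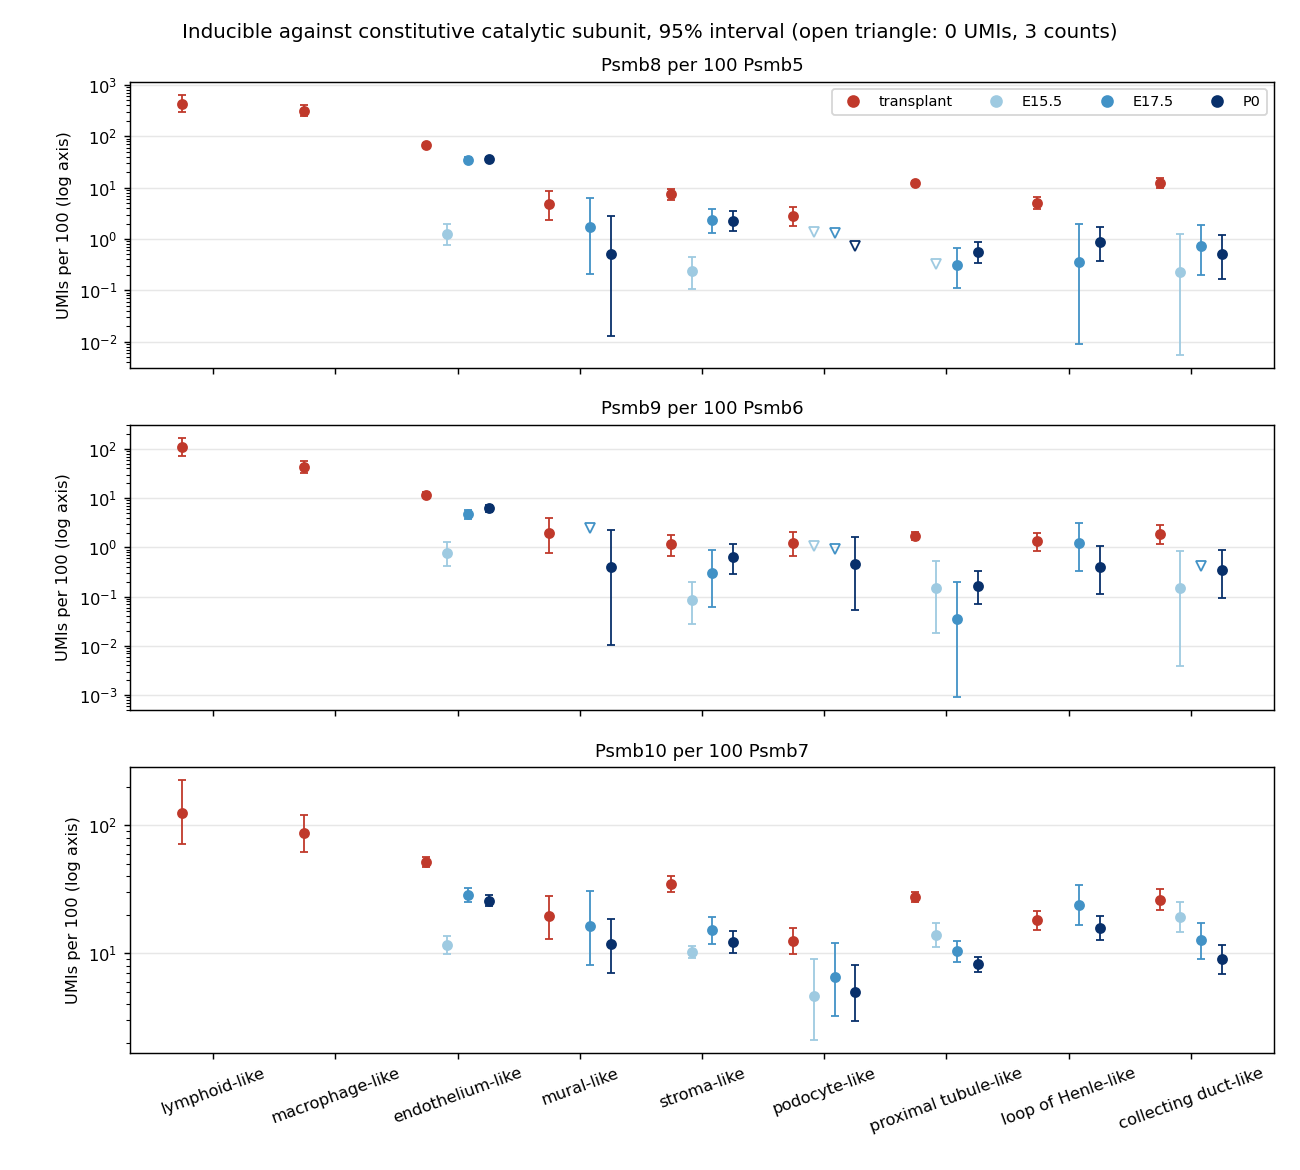
UMIs of Psmb8, Psmb9 and Psmb10 per 100 UMIs of Psmb5, Psmb6 and Psmb7 (log axis) by class, with exact 95% intervals; open triangles mark 0 UMIs at the level of 3 counts. The transplant stands highest for Psmb8 in every class with several libraries, at 67.5 in endothelium-like and 12.3 in proximal tubule-like cells, against 36.1 and 0.557 at P0.

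Ubd was found almost only in the transplant and there mostly in proximal tubule-like cells. It had 1303 UMIs in 125 of 1115 proximal tubule-like cells of the transplant (85.6 CPM) and 0 UMIs in that class at E15.5, E17.5 and P0. Among all used cells it had 1602 UMIs in the transplant, 0 at E15.5 and E17.5 and 3 at P0. Against the floor of 3 counts it was at least 197-fold higher than at E17.5 and at least 368-fold higher than at P0. Proximal tubule-like cells held 96.8% of the placed Ubd UMIs of the transplant.

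Few cells carried most of it. The highest cell held 294 UMIs, 5 cells held 50% of the class total, and 25 cells with at least 10 UMIs held 1036. Per 100 H2-D1 UMIs, proximal tubule-like cells held 17.1 (16.1 to 18.1) UMIs of Ubd, against 3.83 (1.82 to 7.16) in stroma-like and 0.0526 (0.0143 to 0.135) in endothelium-like cells, and lymphoid-like cells held 0 beside 479 H2-D1 UMIs. Barcodes of the transplant under 500 genes held Ubd at 15.2 CPM, and the part of free RNA in the Ubd UMIs of the other classes was not tested.

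Within the transplant's proximal tubule-like cells the other genes of the pathway were higher in the cells with Ubd. With each cell thinned to 2000 UMIs, 46 cells held a Ubd UMI and 1069 did not, at median depths of 16027.5 and 11771 UMIs before thinning. H2-D1 stood at 2359 CPM in cells with Ubd and 444 CPM in cells without, 5.31-fold (4.56 to 6.16) higher. H2-K1 was 5.55-fold (4.36 to 7.0), B2m 4.61-fold (3.96 to 5.35), Tapbp 6.56-fold (4.8 to 8.84) and Psmb8 11.9-fold (6.48 to 21.3) higher. The constitutive subunit Psmb5 was at 1.09-fold (0.675 to 1.67), and Slc34a1, the sodium phosphate transporter that marks the proximal tubule, was at 0.353-fold (0.281 to 0.438). The class II genes Cd74, the invariant chain, and H2-Aa were 11.3-fold (10.4 to 12.3) and 11.4-fold (9.48 to 13.7) higher. The leukocyte gene Ptprc had 1 and 8 UMIs, a ratio of 2.9 (0.0655 to 21.7), which is too few to compare. Other leukocyte genes were not read in this split. Before thinning the class held 119 UMIs of Cd52 and 102 of Tyrobp, against 27 of Ptprc. The part of leukocyte RNA in the cells with Ubd was thus not tested. These are cells of 1 library and not replicates.

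**Figure D5:**
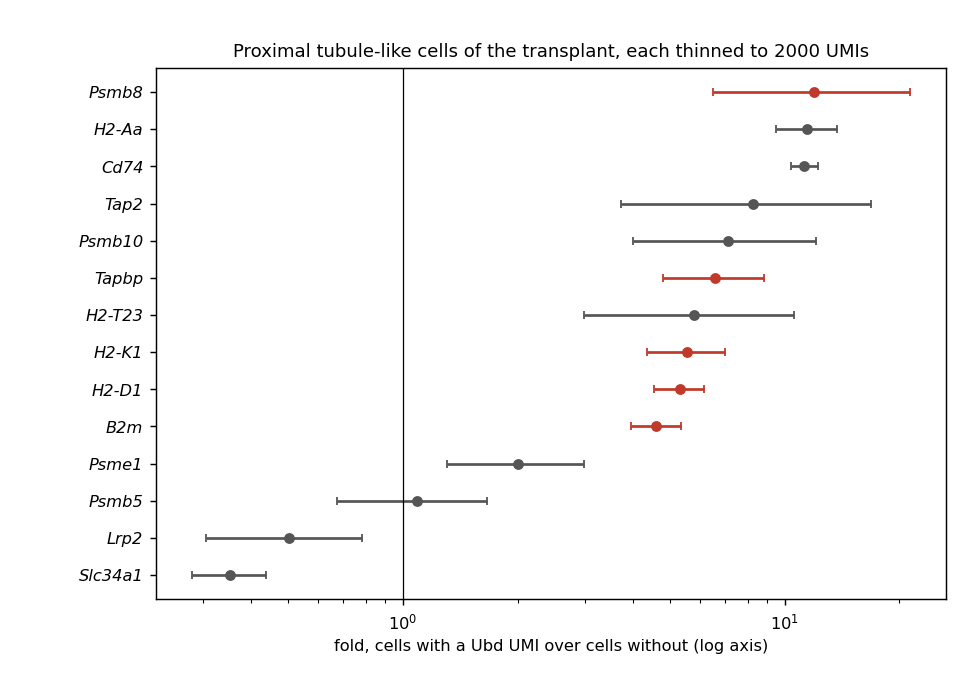
Ratio of level (log axis) in proximal tubule-like cells of the transplant with a Ubd UMI (46 cells) over those without (1069 cells), after thinning to 2000 UMIs per cell, with 95% counting intervals; genes of the studied set are red. Psmb8 stands at 11.9, Tapbp, H2-K1, H2-D1 and B2m between 4.61 and 6.56, Psmb5 at 1.09, and the tubule genes Lrp2 and Slc34a1 below 1.

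Leaving out the 125 proximal tubule-like cells with any Ubd UMI, an alternative chosen after seeing the data, H2-D1 was 9.18-fold, B2m 4.92-fold, H2-K1 4.30-fold and Tapbp 7.62-fold higher than at E17.5. Against P0 the values of these 4 genes were 4.33-fold, 2.29-fold, 2.47-fold and 3.97-fold. Psmb8 moved more, to 12.54-fold against E17.5, in place of 31.3-fold, and to 7.04-fold against P0, in place of 17.6-fold. Psmb9 moved to 20.6-fold against E17.5, in place of 47.6-fold, and to 4.81-fold against P0, in place of 11.1-fold. The ratio of H2-Q6 to P0 moved to 0.253, in place of 0.53, which passes 2-fold lower.

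After thinning to 2000 UMIs, 82.2% (79.2 to 84.9) of endothelium-like cells held H2-D1 in the transplant, against 17.3% (12.6 to 22.8), 45.6% (41 to 50.4) and 72.5% (69.5 to 75.4) at E15.5, E17.5 and P0. The shares before thinning were 92.9%, against 75.7%, 85.7% and 93.5%. Thinned shares for proximal tubule-like cells were 47.9% (44.9 to 50.9) in the transplant, against 1.18% (0.144 to 4.21), 7.96% (6.02 to 10.3) and 13.9% (11.6 to 16.5), and before thinning 86.1%, against 18.9%, 27.9% and 57.7%. Thinned shares for stroma-like cells were 8.89% in the transplant, against 0.436%, 1.13% and 10.1%, and before thinning 21.1%, against 3.16%, 2.45% and 28.1%. In stroma-like cells the shares of the transplant and P0 were in the opposite order to the CPM, so no order is read from them. Among 29 erythroid-like cells at E15.5, which should hold little class I RNA, 0 held H2-D1 after thinning, which allows a share of up to 10.3%, and 3.45% did before it. Their median depth was 24042 UMIs, against 25452 UMIs in proximal tubule-like cells at E15.5. E15.5 was also the library with the lowest H2-D1 in barcodes under 500 genes (0.718 CPM, against 197 CPM in the transplant). The erythroid-like share therefore does not measure background in the other libraries.

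For the lowest levels, such as those of Psmb9 and Tap1 in tubule classes in situ, the part of free RNA was not tested. The same holds for Psmb8 in podocyte-like (6.99 CPM) and loop of Henle-like cells (12.8 CPM) of the transplant. Both levels lay below the 15.2 CPM, from 13 UMIs, of that library's barcodes under 500 genes.

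Nlrc5 was too sparse to compare. It had 35 UMIs among all used cells of the transplant and 3, 1 and 7 at E15.5, E17.5 and P0, and no class reached 20 UMIs in any pair of libraries. Its highest level was 24.3 CPM, in lymphoid-like cells of the transplant, from 4 UMIs.

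Other genes of the pathway were read from lists. Among 8 peptide loading partners in endothelium-like cells, 2 were called higher in the transplant than at E17.5 and 0 lower, beside 12.7% and 5.09% of all genes. Those higher were Tap2, the partner of Tap1, at 63.8 CPM in the transplant and 13.7 CPM at E17.5 (4.66-fold), and the tapasin relative Tapbpl (3.48-fold). Of the general chaperones, Canx (calnexin) stood at 0.744 and Hsp90b1 at 0.81 of E17.5. Between P0 and E15.5, 4 of the 8 were higher at P0, beside 12.8% of all genes, with Tap2 at 14.6-fold (95% interval 8.69 to 26.3).

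Of 5 proteasome activator and assembly genes, 1 was called higher in the transplant than at P0 in endothelium-like cells, Psmb10, just past the threshold (2.03-fold). That count is near the 15.2% of all genes higher there, so nothing is read from it. Pomp, the assembly chaperone, had a ratio of 1.03. Of 11 other subunits of the proteasome core, 0 were called in any class in any of the 3 comparisons. Over all genes and classes, 12.1% of pairs were higher and 5.75% lower for the transplant against E17.5. The shares were 15.2% and 6.4% for the transplant against P0, and 8.27% and 9.61% for P0 against E15.5. Among 14 other class I and related genes, 10 of 11 with enough UMIs were higher in proximal tubule-like cells of the transplant than at E17.5, 1 was lower, beside 13.9% and 5.2% of all genes, and the median log2 ratio was 2.18, beside 0.16 for all genes. In endothelium-like cells 6 of 9 were higher, beside 12.7% of all genes, among them H2-Q7 (6.37-fold) and H2-M3 (4.12-fold), while Cd1d1, which presents lipids, had a ratio of 1.15.

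Of the transcription factors of the pathway, Irf1, an activator of class I and immunoproteasome genes downstream of interferon gamma, stood at 31.2 CPM in endothelium-like cells of the transplant, against 8.41, 90.8 and 106 CPM at E15.5, E17.5 and P0. It was lower in the transplant than at E17.5 (ratio 0.343) and P0 (0.295), and higher at P0 than at E15.5 12.6-fold (95% interval 9.69 to 16.6). Irf1 in proximal tubule-like cells was higher in the transplant than at E17.5 4.02-fold (95% interval 2.63 to 6.42). Of 16 such factors with enough UMIs in endothelium-like cells, 0 were higher in the transplant than at E17.5 and 1 lower, beside 12.7% and 5.09% of all genes. Of 17 in proximal tubule-like cells 5 were higher and 0 lower, beside 13.9% and 5.2% of all genes. Of the list of receptors and kinases only Ifngr1, a chain of the interferon gamma receptor, is given here. It was higher in endothelium-like cells of the transplant, at 2.33-fold against E17.5 and 2.93-fold against P0. Of all genes there, 12.7% and 15.2% were at least 2-fold higher. A single gene does not describe its list, so nothing is read from it.

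Other interferon-stimulated genes were counted next. In endothelium-like cells 22 of 22 with enough UMIs were higher at P0 than at E15.5, with a median log2 ratio of 4.72, beside 12.8% of all genes. In the same class 4 of 23 were higher and 2 lower in the transplant than at E17.5 (median 0.36), near the 12.7% higher and 5.09% lower of all genes, so nothing is read from that count. Isg15, a ubiquitin-like antiviral protein, stood at 148 CPM in the transplant and 325 CPM at E17.5, a ratio of 0.455, while the guanylate-binding protein Gbp2 was higher 4.98-fold (95% interval 3.28 to 7.87). Of these genes in proximal tubule-like cells, 15 of 19 were higher and 1 lower in the transplant than at E17.5 (median 2.16), beside 13.9% and 5.2% of all genes, with the chemokine Cxcl10 at 13-fold. The same chemokine was lower in endothelium-like cells of the transplant, at a ratio of 0.401 to E17.5.

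Class II genes, which present peptides to CD4 T cells, were higher in the transplant than at E17.5 in 6 of 6 cases in proximal tubule-like cells, beside 13.9% of all genes, and in 5 of 5 in endothelium-like cells, beside 12.7%. Cd74 stood at 1179 CPM in proximal tubule-like cells of the transplant and 10.4 CPM at E17.5, and H2-Aa at 237 and 2.32 CPM. In endothelium-like cells Cd74 stood at 37.5 and 0.37 CPM. Interferon gamma itself (Ifng) had 19 UMIs in the transplant, 17 of them in lymphoid-like cells, and 1, 0 and 2 UMIs at E15.5, E17.5 and P0. Tnf had 103 UMIs in the transplant and 26, 59 and 172 at E15.5, E17.5 and P0. These are raw counts. Library totals were 57855356 UMIs in the transplant and 92387054, 42430540 and 99068204 at E15.5, E17.5 and P0. No order of Tnf levels is therefore read from the counts.

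Over the 36 points of a class and library with at least 50 cells, each gene was set against the mean of the other 9, as Pearson's r of log2(CPM + 10). H2-D1 (0.921), Psmb8 (0.917), Psmb9 (0.901), Tap1 (0.901) and H2-K1 (0.889) lay closest, B2m (0.820) and Tapbp (0.772) further, and H2-Q6 (0.295) and Ubd (0.212) apart. Nlrc5 was too sparse for a value to be given. Among 11015 other genes of at least 20 CPM in some point, the 10 most like the mean of the set were Tap2 (0.952), Birc3 (0.902), Ifi47 (0.897), Igtp (0.893), H2-T23 (0.890), Psme1 (0.885), Gbp2 (0.885), Shisa5 (0.883), Ifngr1 (0.883) and H2-M3 (0.879). The points share libraries and depth, so the values are a description.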

How the data were processed

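Single-cell RNA libraries (10x Genomics 3′ v2 chemistry) of 1 transplanted and 3 in situ mouse kidneys were read as UMI counts per gene and barcode, as deposited by the authors. Per the submitters' processing notes they were made with Cell Ranger 3.1.0 on GRCm38, while the software version per the file headers was 3.0.2 in both ICR libraries and 3.1.0 in the other two. A deposited joined matrix was not used. Barcodes with at least 500 genes and at most 20% mitochondrial UMIs were kept, and the cells with the highest Scrublet scores (scanpy 1.11.5) were removed at 0.8% per 1000 cells. Each cell was thinned to 2000 UMIs and placed in the class of which it held at least 2 distinct markers and more than of any other, and shallower cells were left unplaced. Full counts were then summed by class and library. Total counts were between 42430540 and 99068204 UMIs per library.

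Levels carry exact Poisson 95% intervals, ratios exact conditional binomial ones and shares Clopper-Pearson ones (scipy 1.17.1), all of counting error only. A gene at 0 UMIs was set to 3 counts over the class for a bound. With 1 library per group no test and no p-value was possible. The ratio step was tested on simulated data. Members and gene lists were chosen with earlier results of these data known, and the lists are hand-written. The text names all members and the 10 genes most like the set. The rule for lists was the 2 top and 2 bottom genes by ratio in endothelium-like cells (at least 50 UMIs). For most lists only some of these are named. Slc34a1, Lrp2, Ptprc, Ifng and Tnf were named for their role, outside that rule, after their values were seen. Promoter sequences are from RefSeq (GRCm38.p6), matched by symbol. The alternatives tried covered placing, thinning, filters, doublets, scaling, leukocyte RNA and dissociation stress.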

Additional observations from a re-analysis of the deposited data

How the results depend on the processing

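No paired analysis was possible because each group is 1 library. Under 12 alternatives and 1 added after seeing the data (leaving out proximal tubule-like cells with Ubd), the number of pairs called higher stayed within 1.5 times the reported one: it ran from 33 to 43 for the transplant against E17.5 (38 reported), from 24 to 34 for the transplant against P0 (28 reported) and from 24 to 36 for P0 against E15.5 (32 reported). None of the 254 class medians and 358 single-gene ratios recomputed (in endothelium-like and proximal tubule-like cells, proximal tubule-like ones under some alternatives only) changed sign. Scaling to the median of all genes took the median log2 ratio of the transplant to P0 to 0.24 in endothelium-like and 0.02 in mural-like cells, in place of 0.56 and 0.20. Leaving out cells with Hspa1a or Hspa1b took the podocyte-like median to 0.90 for the transplant against E17.5, in place of 1.37. For P0 against E15.5, the collecting duct-like median ran from 1.10 to 3.11 and the early nephron-like one from 0.62 to 1.97 over the alternatives. Depth limits Psmb9, Tap1 and H2-Q6 in tubule classes in situ, where ratios rest on few UMIs, and Nlrc5 throughout. Variation between animals was not measured.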
